A study of Homo sapiens with 2 samples.

Results

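Glycolysis and the transcriptional response to hypoxia were followed through 36 genes, chosen by symbol: 17 glycolytic enzymes, 4 glucose and lactate carriers, 3 enzymes that switch glycolytic flux, 2 carbonic anhydrases, 3 genes of the HIF pathway and 7 other hypoxia-induced genes. Of these, 33 had at least 1 probe in the annotation used here, out of 20046 named genes on the array, and together they had 59 probes. SLC16A1, SLC16A3 and CA9 had no probe in that annotation, so their expression was not read here. Promoter windows of SLC16A3 and CA9 were still searched, as described below. RNA came from 2 cultures, 1 array each: HCT-8, a line established from a human colon cancer, and HCT-8/V, the counterpart resistant to vincristine, a tubulin-binding drug that blocks mitosis. Both were grown in RPMI 1640 with 10% fetal bovine serum at 37 °C under 5% CO2, and the oxygen level was not stated. Both labels give the plasmid pcDNA3.1-Twist, transferred 48 h before RNA extraction, so no plasmid-free cells were compared and the plasmid's effect cannot be told apart from the cells' own state. The promoter of the plasmid's insert and the share of cells that took it up were not stated. With 1 array per line there is no replicate check and no test, and every difference below compares these arrays only.

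Glycolysis splits glucose into pyruvate in the cytosol, first spending ATP to build fructose bisphosphate and then recovering it as the triose phosphates are oxidised, and lactate dehydrogenase turns the pyruvate into lactate. Many tumour cells run this route fast even with oxygen present, and export the lactate and acid. Oxygen acts on the same genes through HIF1A: prolyl hydroxylases of the EGLN family mark the HIF1A protein for destruction when oxygen is present, and when it is scarce the protein pairs with ARNT and induces glycolytic enzymes, glucose carriers, VEGFA and its own regulators EGLN1 and EGLN3. HIF1A is controlled mainly as a protein, which these arrays do not measure.

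Intensities are on a linear scale in arbitrary units, and an intensity averages over all cells of a culture, so fewer cells expressing a gene and less RNA per cell cannot be told apart. The brightest probe stood for a gene. Values were raised to a floor at the median of all probes (12.44 for HCT-8 against 12.42 for HCT-8/V) before log2 was taken, and a higher floor of 81.3, the 75th percentile, separated bright from dim genes. A gene above the floor on at least 1 array was called expressed, which held for 13763 genes. Signed differences subtract HCT-8 from HCT-8/V, and paired values give HCT-8 first. TWIST1, taken here as the gene meant by the plasmid's name, read 163 for HCT-8 against 185 for HCT-8/V. Whether its probe reads the plasmid's insert was not checked. The labelled tissue was poorly marked: of 14 colon epithelial markers, 9 were at or below the floor on both arrays, among them CDX2, VIL1, LGALS4, KRT20 and CDH1, while KRT8, KRT18, EPCAM, CDH17 and, just above the floor, KRT19 were above it. Of 7 mesenchymal markers 6 were expressed, LUM in HCT-8/V only, and 4 passed the higher floor. The summed intensity of the 7 was 6843 for HCT-8 against 7186 for HCT-8/V, most of it VIM. Markers of other tissues were expressed too: 3 of 5 endothelial, 3 of 5 leukocyte, 3 of 3 erythroid, 3 of 4 placental and 1 of 4 neural. The higher floor was passed by 1 each of these types, and by 0 erythroid markers. All 4 muscle markers were below the floor. Being above the floor thus did not single out mesenchymal genes. At the higher floor they stood out more, with 4 of 7 against 3 of 14 colon epithelial markers. Besides VIM, these included DCN (625 for HCT-8 against 854 for HCT-8/V) and PDGFRB (149 and 218). The cultures are therefore called by their labels only, and the part of this marker profile in the results was not tested.

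Expression of the pathway was high in both cultures and close between them. Of the 33 measured members, 31 were expressed, 30 of them above the floor on both arrays, and 12 were above the 95th percentile of all probes on both arrays. None of the 31 differed by 2-fold, where 8.01% of all expressed genes and 0.612% of genes above the higher floor did. A difference of 1.5-fold was passed by 4 members (VEGFA and PDK1, ALDOC and PFKL), against 24.0% of all expressed genes. At the higher floor 3 of 29 members passed it, against 8.89% of genes. In HCT-8/V 17 members read higher and 14 lower, where 52.8% of all expressed genes read higher. The median log2 difference was 0.05 over the members and 0.03 over all expressed genes. These shares were near or under those of the array at large, and what follows describes single genes and steps.

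**Figure D1:**
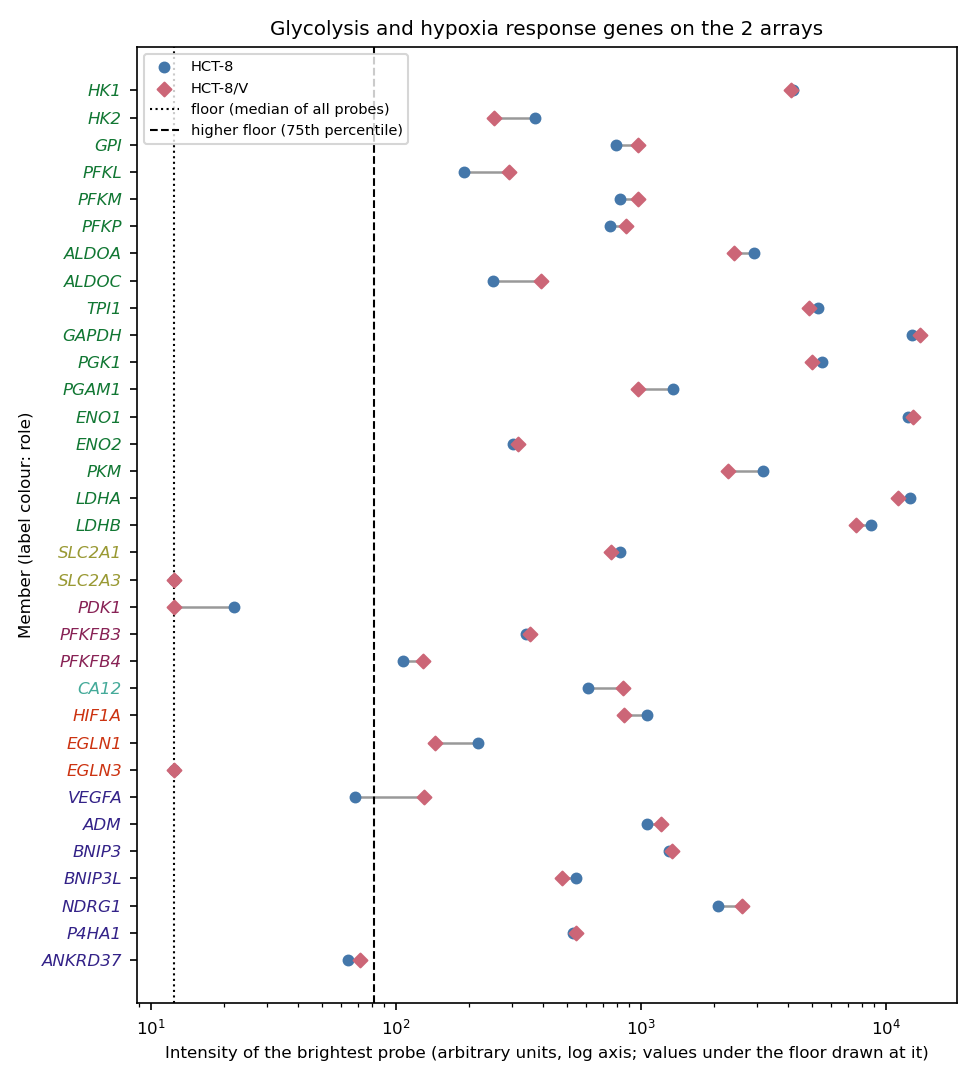
Intensity of the brightest probe of each of the 33 measured members in HCT-8 (circles) and HCT-8/V (diamonds), on a log axis, with 1 array per line; values under the floor are drawn at it, and label colours mark the role. The symbols lie close together in nearly every row, the widest gaps being those of VEGFA (68.5 and 130) and PDK1 (21.9 and 3.18), and SLC2A3 and EGLN3 lie at the floor on both arrays.

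The spread between arrays depended on brightness, so each member was read against expressed genes of its own class. Among 6096 dim genes (mean log2 intensity under that of the higher floor) log2 differences had a standard deviation of 0.72, among 6195 bright genes it was 0.38, and among the 1472 genes above the 95th percentile it was 0.25. Members were concentrated in the last class, with 41.9% of the expressed members against 10.7% of expressed genes. Within the classes they spread about as widely as other genes did: the standard deviation was 0.42 over 16 bright members and 0.24 over the 13 in the top class. In the bright class 11 members read higher and 5 lower, with a median of 0.14 against 0.04 over all genes of the class. In the top class 5 members read higher and 8 lower, with a median of -0.13 against 0.00. Over all expressed genes 52.8% read higher, a share that was not counted by class.

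**Figure D2:**
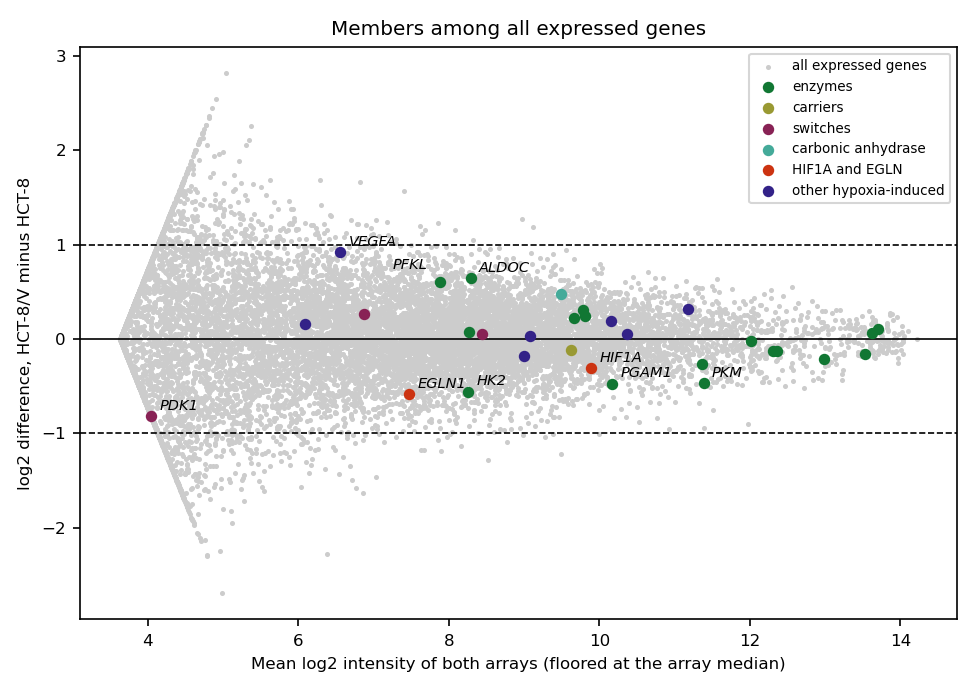
Log2 difference (HCT-8/V minus HCT-8) against the mean log2 intensity of both arrays for all 13763 expressed genes (grey) and the 31 expressed members (coloured by role), with dashed lines at 2-fold. Most members sit in the bright part of the cloud, while PDK1 and ANKRD37 are dim. The members lie between -0.82 (PDK1) and 0.92 (VEGFA), and none crosses a dashed line.

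The promoters of these genes are known for a short word, ACGTG or GCGTG, the core to which HIF binds, and RefSeq sequences (GRCh38.p14) of 300 bases, from 250 before to 50 after a listed start, were searched for it on both strands. The table held 58 such windows for 31 members, which are not the same set as the 31 expressed ones. They include CA9, SLC16A3 and EGLN3, while VEGFA, NDRG1, BNIP3L, SLC2A3 and SLC16A1 had no window. A palindrome, CACGTG, reads as ACGTG on both strands, and its matches overlap. ACGTG was found in 39.7% of the members' windows, 24.7% of the windows of expressed genes and 21.4% of all 35116 windows. For GCGTG the shares were 39.7%, 46.6% and 36.5%, and for either word 67.2%, 58.6% and 48.4%. The members' windows were also richer in G and C, with a median of 68.3% against 63.7% for expressed genes, and the part of base composition in these shares was not tested. Counted by gene, 61.3% of the 31 members held ACGTG in at least 1 window, against 31.3% of 10815 expressed genes, 61.3% held GCGTG against 55.6%, and 93.5% held either word against 67.3%. Members had more windows each, 1.87 on average against 1.44, and the part of that number in the shares by gene was not tested. HK1 and PFKM, with 7 windows each, weigh most in the count by window. Of 11 members with several windows, 3 (ALDOA, HK1 and PFKM) had windows that overlap, and a listed start need not be the one used in these cells. The following windows are shown because they belong to the enzymes on which the next paragraphs turn: ALDOC and PFKL, the enzymes with the largest positive differences, PKM, which was lower on every probe, and PGK1 and LDHA, which are textbook hypoxia targets. Capitals mark each ACGTG or GCGTG in either orientation. The windows are chr17:28576846-28577145 (minus strand) for ALDOC, chr21:44299803-44300102 (plus) for PFKL, chrX:78103998-78104297 (plus) for PGK1, chr11:18394313-18394612 (plus) for LDHA and chr15:72231141-72231440 (minus) for PKM.
ALDOC: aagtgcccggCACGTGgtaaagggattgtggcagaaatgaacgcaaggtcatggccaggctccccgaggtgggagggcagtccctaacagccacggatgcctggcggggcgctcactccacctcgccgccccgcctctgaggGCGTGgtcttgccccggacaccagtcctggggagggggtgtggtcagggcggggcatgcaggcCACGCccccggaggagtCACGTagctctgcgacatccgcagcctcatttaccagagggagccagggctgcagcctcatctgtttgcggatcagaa
PFKL: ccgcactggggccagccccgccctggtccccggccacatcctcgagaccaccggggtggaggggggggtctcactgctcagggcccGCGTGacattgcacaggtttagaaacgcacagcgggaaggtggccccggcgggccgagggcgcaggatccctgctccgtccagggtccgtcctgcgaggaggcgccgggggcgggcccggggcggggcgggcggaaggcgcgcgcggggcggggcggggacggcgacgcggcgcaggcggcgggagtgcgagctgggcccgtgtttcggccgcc
PGK1: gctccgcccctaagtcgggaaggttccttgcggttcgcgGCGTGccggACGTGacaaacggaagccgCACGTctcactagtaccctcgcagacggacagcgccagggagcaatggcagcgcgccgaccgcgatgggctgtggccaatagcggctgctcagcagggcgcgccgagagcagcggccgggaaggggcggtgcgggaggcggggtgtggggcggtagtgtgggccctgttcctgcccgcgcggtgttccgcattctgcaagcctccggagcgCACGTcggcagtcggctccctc
LDHA: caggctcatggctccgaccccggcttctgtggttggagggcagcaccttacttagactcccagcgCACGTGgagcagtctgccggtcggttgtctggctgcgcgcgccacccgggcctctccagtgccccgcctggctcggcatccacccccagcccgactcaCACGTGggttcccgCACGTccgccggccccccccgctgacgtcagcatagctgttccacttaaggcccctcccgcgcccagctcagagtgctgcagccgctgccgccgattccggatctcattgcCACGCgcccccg
PKM: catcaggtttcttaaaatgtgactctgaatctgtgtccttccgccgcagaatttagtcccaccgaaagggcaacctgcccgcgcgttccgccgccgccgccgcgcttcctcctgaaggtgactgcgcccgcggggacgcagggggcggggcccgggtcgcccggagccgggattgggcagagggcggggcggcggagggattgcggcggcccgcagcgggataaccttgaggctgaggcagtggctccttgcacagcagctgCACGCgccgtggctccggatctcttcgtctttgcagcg
ALDOC, PGK1 and LDHA each hold 4 separate stretches in capitals, and PFKL and PKM hold 1 each. LDHA has 2 listed windows, and the one not shown holds 1 GCGTG and no ACGTG. Members with each word were split in direction. Of 17 expressed members with ACGTG in at least 1 window, 10 read higher and 7 lower in HCT-8/V (median log2 difference 0.05). Of 10 with GCGTG alone 5 read higher and 5 lower (median 0.02). For lack of a window these counts leave out VEGFA and NDRG1, which read higher, and BNIP3L, which read lower on its brightest probe. PGAM1 held neither word in its only listed window, and it read lower.

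Among the glycolytic enzymes, the glucose-6-phosphate isomerase and phosphofructokinase genes read higher in HCT-8/V, while the mutase and pyruvate kinase genes read lower. The lactate dehydrogenase genes read lower by less on their brightest probes, and a dim LDHA probe went the other way. This division of the pathway was made after the values were seen. All 17 enzymes were expressed, 8 higher and 9 lower in HCT-8/V, with a median log2 difference of -0.02 and a range from -0.56 to 0.65. From hexokinase to triose phosphate isomerase 5 read higher and 4 lower, with a median of 0.22. From GAPDH to lactate dehydrogenase 3 read higher and 5 lower, with a median of -0.15.

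Hexokinase, which traps glucose as glucose 6-phosphate, is the entry. HK1, the constitutive form, read 4172 for HCT-8 against 4117 for HCT-8/V, practically the same level. A second HK1 probe was dim (51.2 and 56.1) and its other 2 probes were below the floor. HK2, the form raised in many tumours and under hypoxia, had a pair of bright probes that went in opposite directions. Its brighter probe read 371 for HCT-8 against 251 for HCT-8/V (log2 -0.56), and the other read 219 and 265 (log2 0.27). The direction of HK2 is therefore not settled, and with the mean of both probes its difference was -0.14.

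Glucose-6-phosphate isomerase and all 3 phosphofructokinase genes read higher in HCT-8/V. GPI read 790 for HCT-8 against 977 for HCT-8/V (log2 0.31). Phosphofructokinase commits the sugar to glycolysis, and its liver-type subunit gene PFKL read 191 and 291, 1.52-fold higher, the largest difference among the subunits. The muscle-type subunit gene PFKM read 824 and 975 (log2 0.24), and the platelet-type PFKP 750 and 871 (log2 0.22). Relative to PFKM and PFKP, PFKL was thus 1.29-fold and 1.31-fold higher in HCT-8/V. For PFKL 10.8% of genes of its class differed by as much, and for GPI, PFKM and PFKP the share was 40.0%, 50.4% and 55.1%. Each of these 4 genes had a single probe above the floor, so no other probe could be set beside it.

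Aldolase cuts fructose bisphosphate, and of its isoenzymes ALDOC read higher in HCT-8/V while ALDOA had no settled direction. ALDOC, the form typical of brain and known to be induced by hypoxia, read 250 for HCT-8 against 391 for HCT-8/V on its only probe. That is 1.56-fold higher (log2 0.65), and 9.15% of genes of its class differed by as much. ALDOA, the main form in most tissues, had bright probes that disagreed, at 2890 and 2409 (log2 -0.26) and at 2349 and 2692 (log2 0.20). Its remaining probes were below the floor. On the brightest probes the balance of ALDOA over ALDOC was 1.88-fold lower in HCT-8/V, and with the second ALDOA probe it was 1.36-fold lower. For HK1 over HK2 the balance was 1.45-fold higher on the brightest probes and 1.22-fold lower with the second HK2 probe.

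TPI1, which interconverts the triose phosphates, read lower in HCT-8/V on both of its probes, at 5322 and 4863 (log2 -0.13) and at 4517 and 3749 (log2 -0.27). GAPDH, which oxidises them and often serves as a reference gene, read slightly higher on each of its 3 bright probes, at 12767 and 13781, at 7852 and 8959, and at 6284 and 6768. The 3 log2 differences averaged 0.14 with a standard deviation of 0.05 over probes, and 64.3% of genes of its class differed by as much as its brightest probe (log2 0.11). PGK1, which makes the first ATP of the pathway, was slightly lower on both probes, at 5501 and 5028 and at 1334 and 1279. For TPI1 and PGK1, 58.3% and 58.6% of the class differed by as much as the brightest probe.

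PGAM1 and PKM stood further from 0. PGAM1, the mutase that moves the phosphate of 3-phosphoglycerate, read 1353 for HCT-8 against 974 for HCT-8/V (log2 -0.47) on its brighter probe. Its other probe read 663 and 465 (log2 -0.51), so the probes were alike, and 5.64% of genes of its class differed by as much as the brighter probe. PGAM4, a near-identical copy of PGAM1, also read lower (2364 and 1892), and whether their probes tell the copies apart was not checked. PKM encodes pyruvate kinase of most adult and tumour tissues, in the M1 and M2 forms made by alternative splicing, and sets the output of pyruvate. Its 3 probes, all bright, read 3146 and 2277, 1430 and 856, and 870 and 426, lower in HCT-8/V each time. The log2 differences were -0.47, -0.74 and -1.03, with a mean of -0.75 and a standard deviation of 0.28 over probes. The last was the only one of 49 expressed member probes past 2-fold, where 8.54% of all expressed probes were. That share mixes dim and bright probes: counted by gene, 1.10% of the bright class and 17.0% of the dim class passed 2-fold. Which PKM splice form each probe reads was not checked, so the unequal sizes cannot be assigned to M1 or M2.

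Of the enolase genes, which act in the step before pyruvate kinase, ENO1 and ENO2 were level. ENO1 read 12368 for HCT-8 against 12925 for HCT-8/V, and the neuronal form ENO2 read 301 and 316, with log2 differences of 0.06 and 0.07. The muscle form ENO3, which is not among the members, read 1692 and 1983 (log2 0.23). Of the lactate dehydrogenase genes, LDHA, whose product favours lactate formation, read 12557 and 11220 on the brightest probe (log2 -0.16) and 12996 and 10108 on a second of like brightness (log2 -0.36). Its remaining probe, which was dim, went the other way, at 47.1 and 68.4. LDHB, whose product favours the reverse reaction, read 8716 and 7545 (log2 -0.21). For LDHA and LDHB, 49.6% and 37.6% of genes of their class differed by as much as the brightest probe. The balance of LDHA over LDHB moved by 1.03-fold only, on the brightest probes.

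**Figure D3:**
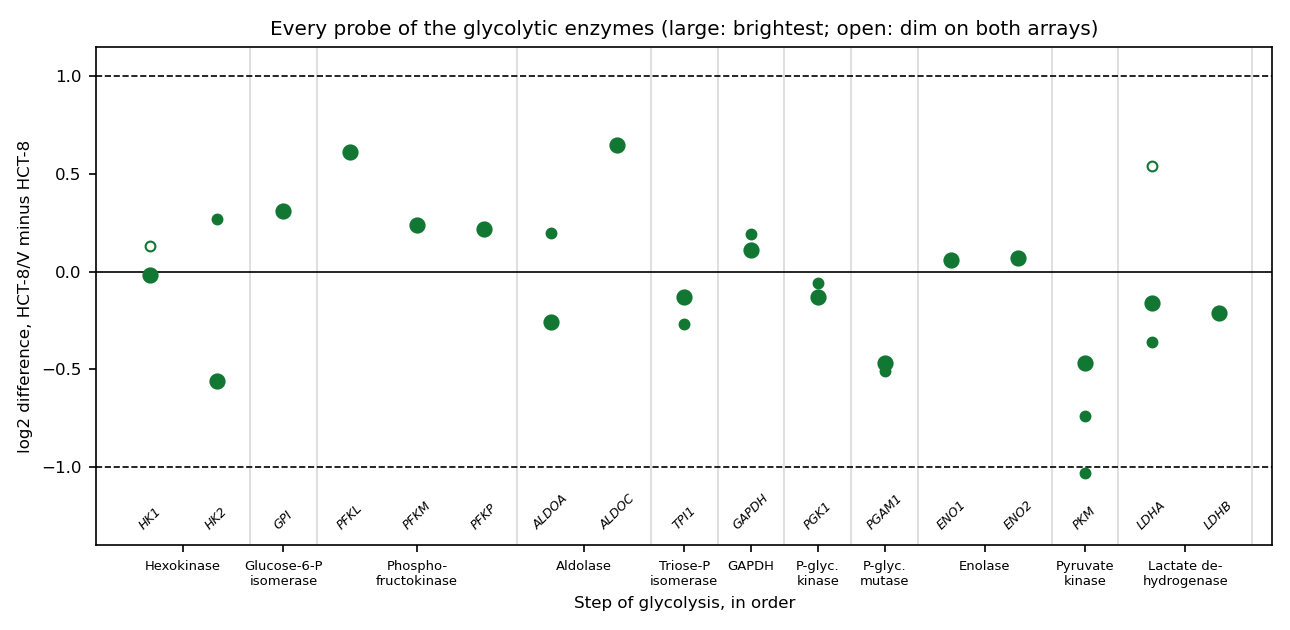
Log2 difference (HCT-8/V minus HCT-8) of every probe above the floor for the 17 glycolytic enzymes, in the order of the pathway; large circles are the brightest probes, open circles are dim on both arrays, and dashed lines mark 2-fold. GPI and the 3 phosphofructokinase genes lie above 0 (0.22 to 0.61), and TPI1, PGK1, PGAM1, PKM and LDHB lie below it on every probe drawn. The probes of HK2 and ALDOA lie on both sides, as do those of HK1 and LDHA through a dim probe above 0.

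The carriers and switches around glycolysis differed little where they were bright. SLC2A1, encoding the glucose carrier GLUT1, read 821 for HCT-8 against 754 for HCT-8/V (log2 -0.12), and 73.2% of genes of its class differed by as much. SLC2A3, encoding the high-affinity GLUT3, was below 0 on both arrays (-23.0 and -19.4). PFKFB3, whose product makes the activator of phosphofructokinase, read 342 and 354, and its second probe 92.2 and 100. The related PFKFB4 read 107 and 129 (log2 0.26), and 47.1% of its class differed by as much. PDK1, the kinase gene that closes the entry of pyruvate into mitochondria and a HIF target, was dim. It read 21.9 for HCT-8 against 3.18 for HCT-8/V, where it was below the floor, so it was at least 1.76-fold lower there. Of dim genes 26.0% differed by as much.

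HIF1A and EGLN1 read lower in HCT-8/V. HIF1A, the oxygen-regulated subunit of the factor, read 1058 for HCT-8 against 856 for HCT-8/V on its brightest probe, 509 and 258 on the second and 274 and 152 on the third. All 3 probes were bright and lower in HCT-8/V, with log2 differences of -0.31, -0.98 and -0.85. Their mean was -0.71, with a standard deviation of 0.36 over probes, so the size of the difference depended on the probe and reached 1.97-fold on the second. On the brightest probe alone 40.0% of genes of its class differed by as much. EGLN1, encoding the main oxygen sensor PHD2 and itself a HIF target, read 217 and 145 on its only probe (log2 -0.58), and 12.3% of genes of its class differed by as much. EGLN3, encoding PHD3 and strongly hypoxia-inducible, was below 0 on both arrays (-1.86 and -9.19). HIF pathway members thus had 2 of 2 expressed genes lower, with a median of -0.44. Over all expressed genes 52.8% read higher, with a median of 0.03, and 2 genes are too few to set against that share.

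GAPDH, PKM and HIF1A were the members with 3 bright probes, and each went one way on all of them. In all, 210 genes had at least 3 probes above the higher floor on both arrays. In 90 of these genes (42.9%) all such probes went one way. Pairing the brightest and second bright probe of a gene gave 1535 genes, of which 60.3% went the same way on both, with a standard deviation of 0.28 per probe. Among 12 members with such a pair 8 went the same way (66.7%), with 0.30 per probe, and HK2, ALDOA, CA12 and BNIP3L did not.

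Among the other hypoxia-induced members VEGFA stood furthest from 0, and the rest differed by small amounts. Of 7 genes, 6 read higher and 1 lower, with a median log2 difference of 0.16, where 52.8% of all expressed genes read higher with a median of 0.03. Of the 6, BNIP3 (0.05) and P4HA1 (0.04) lay at the median of the array. VEGFA, encoding the main growth factor of blood vessels, was higher on both of its expressed probes. Its brightest probe read 68.5 for HCT-8 against 130 for HCT-8/V, 1.90-fold higher (log2 0.92), and 1.76% of genes of its class differed by as much. A second, dim VEGFA probe read 23.3 and 35.8 (1.54-fold higher), and the remaining one was below 0 on both arrays. Because HCT-8 lay below the higher floor, the log2 difference measured from that floor was 0.67. With the mean of all 3 probes it was 0.51, the undetected probe entering as no change. NDRG1, a stress-induced gene linked to differentiation, read 2073 and 2590 (log2 0.32), and 19.1% of its class differed by as much. ADM, the vasodilator peptide adrenomedullin, read 1066 and 1215 (log2 0.19).

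The mitophagy receptor genes and the collagen hydroxylase were level. BNIP3 read 1300 for HCT-8 against 1347 for HCT-8/V. BNIP3L had bright probes in opposite directions, at 543 and 480 and at 197 and 229. P4HA1, a prolyl hydroxylase subunit that matures collagen, read 532 and 545, and its second probe was below 0. ANKRD37, a HIF target, was dim at 64.2 and 71.7. CA12, a membrane carbonic anhydrase that helps to clear acid, read 611 and 849 on its brighter probe (log2 0.47), and the other read 134 and 131, so its difference rests on 1 probe.

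**Figure D4:**
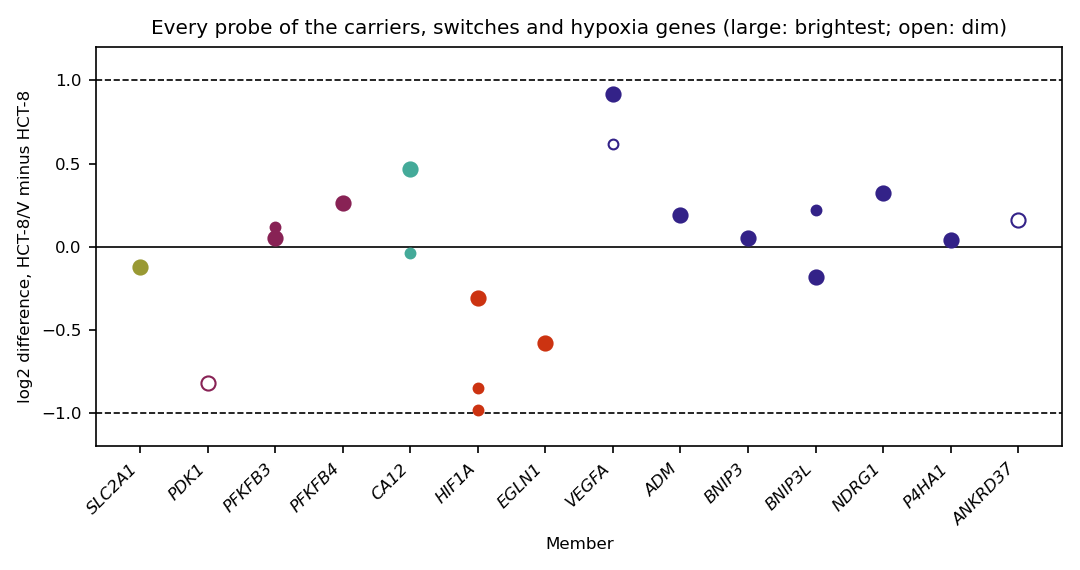
Log2 difference (HCT-8/V minus HCT-8) of every probe above the floor for the carriers, flux switches and hypoxia genes; large circles are the brightest probes, open circles are dim on both arrays, and colours mark the role. The 3 HIF1A probes and that of EGLN1 lie below 0 (-0.31 to -0.98), both VEGFA probes lie above it (0.62 and 0.92), and the CA12 and BNIP3L probes lie on both sides.

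Neighbouring pathways were read from 10 lists without the members, again with no test. In pyruvate entry to mitochondria 3 of 12 expressed genes read higher and 9 lower, with a median of -0.22 against 0.03 over all expressed genes. They include PDK4, a pyruvate dehydrogenase kinase gene like PDK1 but bright (3236 for HCT-8 against 2305 for HCT-8/V), PDK3 (476 and 376, lower on both probes) and PDP1, the phosphatase gene that opposes them (92.9 and 66.0). Of 5 genes of the pyruvate dehydrogenase complex itself 4 read lower, with PDHB at 2171 and 1778, DLAT at 457 and 373, PDHX at 623 and 536 and DLD at 670 and 574, while PDHA1 read higher at 2493 and 2918. None of the 12 passed 1.5-fold. In the TCA cycle 12 of 17 read higher, with a median of 0.13. IDH2 read 131 and 183 and the mitochondrial malate dehydrogenase gene MDH2 6743 and 8617, while OGDH (686 and 356, log2 -0.95) and SUCLA2 (1026 and 767) read lower. Of the 3 OGDH probes only 1 was above the floor, so no other probe could be set beside it.

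Other HIF pathway genes went in both directions. Of 17 expressed genes 8 read higher and 9 lower, with a median of -0.05. EPAS1, encoding HIF2A, read 1167 and 1120 and VHL, which targets the hydroxylated subunits for destruction, 1342 and 1353. EGLN2, the third prolyl hydroxylase gene, read higher at 810 and 1366 (log2 0.75), but its other probe went the opposite way and the mean of both was 0.35. P4HTM, a membrane-bound hydroxylase of the same family, read 392 and 593 and was higher on 3 of 3 probes, and the coactivator gene CREBBP read 534 and 412. The partner ARNT was below the floor on both arrays (0.361 and 3.92). Of 51 other expressed hypoxia-induced genes 29 read higher and 22 lower, with a median of 0.09. HMOX1, of heme breakdown, read 67.4 and 123, the dim hydroxylase gene JMJD6 50.7 and 84.8, and ANLN, which also belongs to cytokinesis, 1359 and 828. The erythropoietin gene EPO was below 0 on both arrays.

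Of the remaining lists, carriers, pentose phosphate, gluconeogenesis and glycogen genes had medians within 0.05 of 0, and the other 2 lay above it. Other glycolytic isoenzymes and regulators had 11 of 17 higher (median 0.11), with LDHC at 44.8 and 93.2 on 1 probe but a mean of -0.23 over its probes, PFKFB2 at 99.9 and 129 (mean -0.47) and MINPP1 at 107 and 137. Other glucose and monocarboxylate carriers had 6 of 13 higher (median -0.05), with TXNIP, which restrains glucose uptake, at 165 and 246, SLC2A8 at 200 and 298 and SLC2A6 at 264 and 346. In the pentose phosphate pathway 6 of 11 read higher (median 0.03), with RPE at 370 and 250, RBKS at 79.2 and 94.4 and PGD at 1124 and 962. Gluconeogenesis had 2 of 5 higher, PCK2 reading 363 and 547 and G6PC3 230 and 213, and glycogen metabolism 6 of 13, with PPP1R3C at 290 and 376, GBE1 at 294 and 245 and PHKB at 259 and 232. Of other carbonic anhydrases and acid-base carriers 6 of 9 read higher (median 0.29), all 6 of them dim, while the bright SLC4A2 (862 and 593), CA5B (4270 and 3070) and SLC4A7 (253 and 199) read lower.

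**Figure D5:**
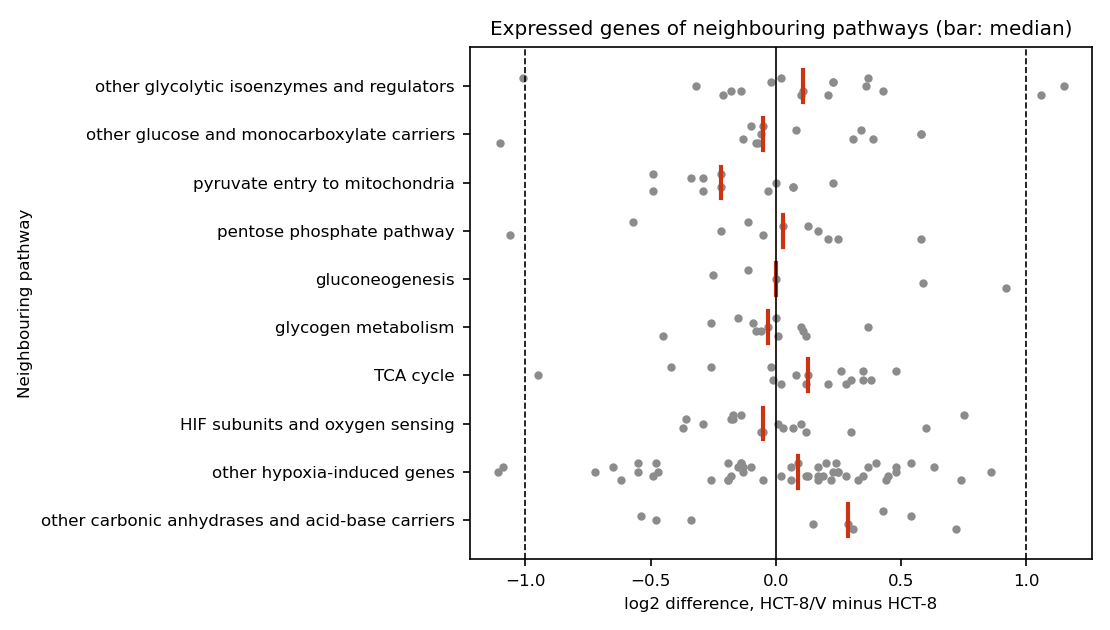
Log2 difference (HCT-8/V minus HCT-8) of each expressed gene in 10 neighbouring pathways, with the median as a bar and dashed lines at 2-fold. The medians run from -0.22 for pyruvate entry to mitochondria to 0.29 for other carbonic anhydrases and acid-base carriers, and every list holds genes on both sides of 0.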

How the data were processed

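The deposited table holds 1 intensity per probe and array for 47323 probes on 2 Illumina bead arrays, from total RNA labelled as biotin cRNA, per the labels' protocols. How the authors corrected background and scaled the arrays is not given in the sources used here. The deposited intensities are linear, 29.2% are below 0, and both arrays share their minimum, 75th percentile and maximum, so background had been subtracted and the distributions matched before deposit, and a shift shared by most genes could not be seen. Depth does not apply, and the number of arrays limits the precision.

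Probes with 1 symbol (30113) were named from the platform annotation and updated through the Entrez ID to RefSeq (GRCh38.p14) for 30074. The 8 probes with several symbols and the 17202 with none were left out. Values under an array's median were raised to it, and log2 values were subtracted. Each of 20046 genes was read on the probe with the highest mean intensity. All members are named, and of each neighbouring list the 3 genes above the higher floor with the largest differences, other names having been chosen after values were seen. The members and lists were chosen with earlier results of these data known. Probe sequences were not used here, so cross-hybridisation to copies was not checked. The alternatives were median centring, quantile normalization, a loess trend removed (span 0.3), the higher floor, no floor (intensity plus 46.0), the mean of all probes, the second brightest probe and fold thresholds of 1.5 and 3. In the mean of all probes a probe below the floor on both arrays enters as practically no change, which draws the mean towards 0. Python 3.11.15 with pandas 2.3.3 and statsmodels 0.14.6 was used. The procedure was tested on simulated data, a copy of 1 array with known 3-fold changes and no noise, which checks its arithmetic only.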

Additional observations from a re-analysis of the deposited data

How the results depend on the processing

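No paired analysis was possible because each line has 1 array and the lines share only that replicate number, and leaving out a replicate was not possible either. No member differed by 2-fold with quantile normalization, median centring, the loess trend removed, the higher floor, no floor, the mean of all probes or the second brightest probe, nor by 3-fold, while 4 passed 1.5-fold. The first 5 of these left the direction of every member with a value unchanged, but they could hardly have altered it. The distributions were matched before deposit, so quantile normalization returned practically the same values. A floor or offset shared by both arrays keeps the order of a pair, and centring moved differences by the array median of 0.03. These 5 settings therefore say little about direction. Averaging all probes turned 3 of 31 members and the second brightest probe turned 5 of 14, which together were HK1, HK2, ALDOA, LDHA, CA12 and BNIP3L. The median over the glycolytic enzymes went from -0.02 to 0.03 with the mean of all probes, so its sign carries no information. With the second brightest probe CA12 read -0.04 in place of 0.47, the HIF pathway median was -0.98 over HIF1A alone, and 14 members had a value, 7 of them higher, since fewer genes have such a probe. That probe gave no value for the carriers. The median over all members lay between 0.01 (as a mean) and 0.05. Differences in dim genes such as PDK1 are limited by signal over background.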
